A study of Drosophila melanogaster with 9 samples.

Results

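Of the genes known only by a CG number, 95 were almost lost from *aly* testes, with a signal at least 16 fold below control, while their signal in *Nxt1* testes was less than 2 fold below control or above it. They were drawn from 11981 genes measured by a probe set with 1 gene symbol. Among these, 5209 had a symbol made of CG and digits, which marks a gene predicted from the genome sequence that had not been given another name when the array annotation was made. Where several probe sets measured a gene, the one with the greatest mean log2 signal over the 9 arrays was taken. Genes were selected on the measured differences from control, so that a gene was kept where the mean log2 signal of *aly* minus control was -4 or less and that of *Nxt1* minus control was above -1. The first condition alone held for 728 CG genes, and the 95 make up 13.0% of them.

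Total RNA of testes from males 0 to 1 day old was measured on Affymetrix arrays for Drosophila, 3 per genotype. The *aly* flies carried *aly*[5] with the markers red[1] and e[1] and were cultured at 27°C. The *Nxt1* flies carried w and *Nxt1*[z2-0488] over *Nxt1*[DG05102], of which the study describes the first as a missense allele with residual function and the second as a likely null insertion, and they were cultured at 25°C. The control flies carried w, tinRNAi and bamGal4VP16, a driver active in the male germline, at 29°C, so the control was itself an RNAi line. Genotype cannot be told apart from culture temperature. The study compared its *Nxt1* arrays with array data that it already had. A difference of *Nxt1* testes therefore cannot be told apart from an effect of when the arrays were run. Whether the replicates of a genotype were separate cultures is not given in the labels, so the p-values reflect the scatter of the arrays alone, which may be technical, and their number limits the precision.

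In Drosophila spermatocytes a large programme of testis transcription is switched on before meiosis. The testis meiotic arrest complex (tMAC), of which the *aly* product is a subunit, is needed to start this transcription, together with testis forms of the TAF subunits of TFIID. *Nxt1* is the small partner of the mRNA export receptor, with which it carries mRNA out of the nucleus. Testes that lack either function fill with mature primary spermatocytes that do not divide, and spermatids are absent. In whole testes, fewer cells of a type and less RNA per cell cannot be told apart, and this holds for every difference from control below.

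The values are RMA signals on a linear scale. The median signal of an array was between 98.4 and 109.5, and signals of arrays of 1 genotype correlated across probe sets with r of 0.990 to 0.997. The median log2 signal of 6 male germline genes of 7 listed was 8.14 to 8.40 in *aly*, 8.52 to 8.69 in *Nxt1* and 9.62 to 9.83 in control testes. This median hides unlike genes: *bam*, which acts in early germ cells, had signals of 889.7 to 1092 in *aly* and 509.7 to 570.03 in *Nxt1* testes, against 138 to 179.8 in control testes, while *vas* lay below the array median everywhere, at 42.5 to 70.6. The median of 15 of 17 genes known for transcription in spermatids was 6.84 to 7.31 in *aly*, 8.94 to 9.26 in *Nxt1* and 12.49 to 12.55 in control testes. All 15 were lower on every array of either mutant than on any control array. Between the mutants single genes went both ways. Signals of *hale* were 2985 to 3233 in *aly* and 212 to 249 in *Nxt1* testes, and those of *sowi* 181 to 248 and 5563 to 6359. Genes of the accessory gland, an organ beside the testis, stood high, at 11.83 to 13.05 in *aly* and 12.17 to 13.60 in *Nxt1* testes, against 4.86, 10.16 and 11.14 in control testes (14 of 16 genes). For 6 of 8 fat body genes the medians were 8.61 to 9.18 in *aly*, 6.14, 6.16 and 8.41 in *Nxt1* and 5.94 to 6.38 in control testes. Over the 9 arrays the medians lay between 9.01 and 9.90 for muscle genes (5 of 8). For cyst and hub cell genes (5 of 6) they lay between 5.66 and 6.08. These medians hide unlike genes too. Signals of *esg* were 47.2 to 82.2 in the mutants and 154 to 237 in control testes, and those of *eya* 739 to 898 and 519 to 553. *tj*, *zfh1* and *upd1* stayed between 32.6 and 78.3, below every array median. Among muscle genes, *up* and *Tm2* were above control on all mutant arrays, and *bt* was below it on all *aly* arrays. Control replicate 1 stood apart by its low accessory gland signal, and without it the same rule found 95 genes, 94 of them shared. *Nxt1* replicate 3 stood apart within the fat body list by its yolk protein genes. There *Yp1*, *Yp2* and *Yp3* had 271, 499.6 and 465, against 29.3 to 75.5 on the other *Nxt1* arrays. *Lsp2* at 425 lay between its values on those arrays, and *Fbp1* and *Fbp2* were little above theirs, at 80.0 and 115. In *aly* testes, by contrast, *Lsp2*, *Fbp1*, *Fbp2* and *Yp3* were above control on every array, and *Yp1* and *Yp2* were not. Without *Nxt1* replicate 3, 98 genes met the rule, 94 of them shared. What part the spermatid, accessory gland or fat body signal has in the values below was not tested.

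The 95 genes were far dimmer in *aly* testes and among the brighter genes of *Nxt1* and control testes. Their median signal was 103 in *aly*, 3731 in *Nxt1* and 4826 in control testes, from 21.0 to 1016 in *aly*, 446 to 14833 in *Nxt1* and 828 to 25775 in control testes. By array, the median over the 95 was 99.9, 104.1 and 85.0 in *aly*, 3888, 3704 and 3741 in *Nxt1*, and 4796, 4799 and 4814 in control testes. On all 3 *aly* arrays, 40 of the 95 lay below the median signal of the array and 36 lay above it. In *Nxt1* testes 54 of the 95 stood above the 90th percentile of each of the 3 arrays, where 8.66% of all CG genes did. In control testes 60 of the 95 did so, beside 16.1% of all CG genes. A dim gene could hardly meet both limits, so these shares follow in part from the choice, and nothing is read from them.

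Both differences from control were used to choose these genes, so their sizes are given as a description without a test. The log2 difference of *aly* minus control ran from -7.31 to -4.04 with a median of -5.38, so that the median gene kept 2.40% of its control signal in *aly* testes. For *Nxt1* minus control it ran from -0.99 to 1.76 with a median of -0.56, and the median gene had 67.9% of its control signal in *Nxt1* testes, in a range of 50.2 to 339%. The limits also set the means of *Nxt1* and *aly* testes more than 8 fold apart. Array by array, the lowest *Nxt1* signal was 8.18 to 72.5 fold above the highest *aly* signal. All *aly* arrays lay below all control arrays for 95 of 95, which is fixed by the choice of genes, beside 20.8% of all 18769 probe sets.

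In most of the 95 the *Nxt1* signal was somewhat below that of control testes. In 77 genes the highest *Nxt1* array was below the lowest control array, beside 32.1% of all probe sets. In 11 genes the *Nxt1* arrays all lay above those of control, beside 37.1% of all probe sets, and in 7 the groups overlapped. The choice excluded genes far below control, and nothing is read from these shares. Between -1 and -0.75 on the log2 scale of *Nxt1* minus control lay 31 of the 95, between -0.75 and -0.5 lay 21, between -0.5 and -0.25 lay 17, and between -0.25 and 0 lay 11. Above 0 lay 15, of which 7 exceeded 0.5 and 3 exceeded 1.

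**Figure D1:**
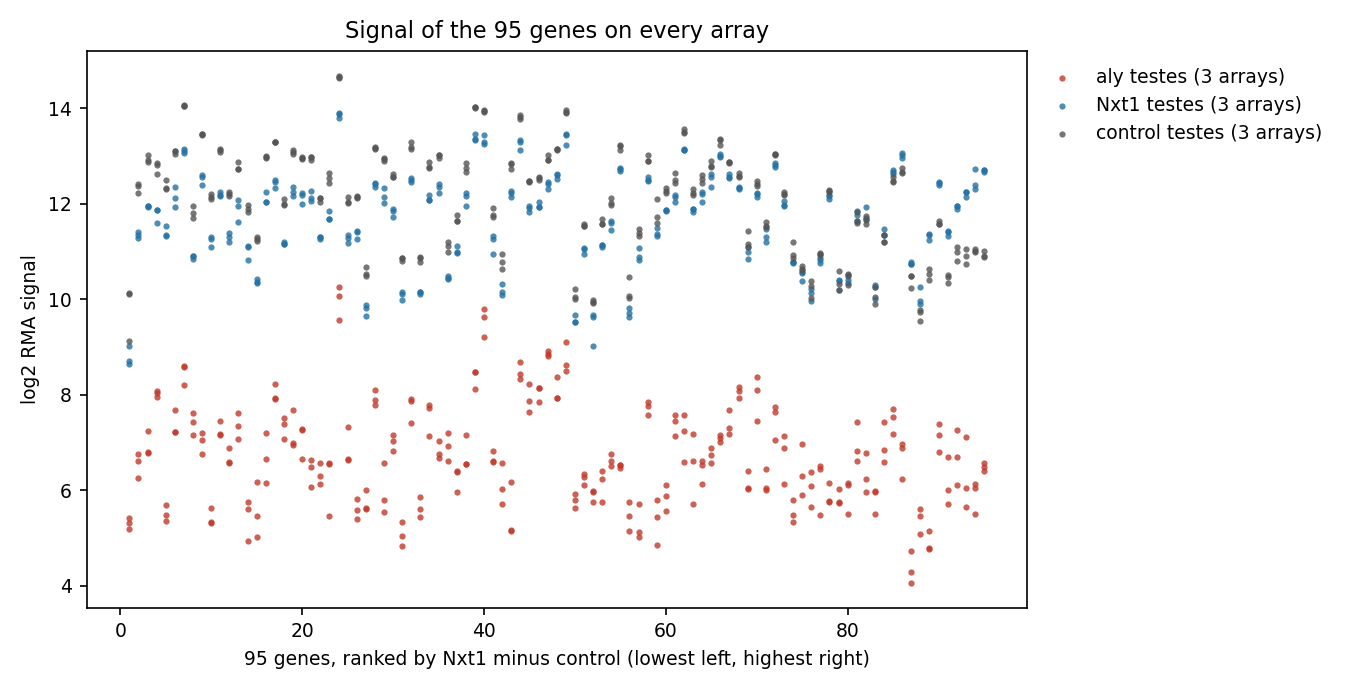
Log2 RMA signal (vertical axis) of each of the 95 genes on each of 9 arrays, with genes ranked along the horizontal axis by *Nxt1* minus control and 1 point per array for *aly*, *Nxt1* and control testes. The *aly* points lie below all *Nxt1* points of the same gene by 8.18 fold or more, and the *Nxt1* points pass from just below to above the control points at the right.

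Arrays of a genotype differed by less than *aly* and control testes did, but not always by less than *Nxt1* and control testes, as the 7 genes with overlapping arrays show. The median SD of log2 signals over the 95 was 0.27 in *aly*, 0.08 in *Nxt1* and 0.06 in control testes. The array of *aly* replicate 3 held the lowest of the 3 *aly* signals in 60 of the 95, and *Nxt1* replicate 3 the lowest of the 3 *Nxt1* signals in 61. The widest spread in control testes was that of *CG33287*, described below.

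Among the brightest of the 95, *CG10252* had signals of 1068, 1224 and 756 in *aly*, 15337, 14986 and 14177 in *Nxt1* and 25796, 26054 and 25475 in control testes. It stood out in *aly* testes too, where its signal was the highest of the 95 on every array. *CG30039* had 385, 389.6 and 296 in *aly*, 9081, 8786 and 8516 in *Nxt1* and 16999.6, 16942 and 17010.5 in control testes. *CG5762* had 356, 356 and 279 in *aly*, 10527, 11283 and 10287 in *Nxt1* and 16547, 16559 and 16379 in control testes. In both of these the *Nxt1* arrays kept more than 50% of the control signal and the *aly* arrays about 2% of it, with log2 differences of -5.58 and -5.65 for *aly* minus control and -0.95 and -0.63 for *Nxt1* minus control.

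*CG5217* had signals of 792, 889.7 and 594 in *aly*, 11092, 10006 and 9765 in *Nxt1* and 15718, 15562 and 15831 in control testes. Its absolute signal in *aly* testes was second to that of *CG10252* among the 95, and *aly* minus control was -4.39. *CG17261* had 394, 552 and 359 in *aly*, 11243, 11067 and 9584 in *Nxt1* and 15457, 15956 and 15199 in control testes. The gene *CG4546*, listed in the reference as AK-3, had 345, 411 and 319.9 in *aly*, 10242, 9958 and 8915 in *Nxt1* and 14337, 14738 and 14044 in control testes. For these 3 genes *Nxt1* minus control was -0.61, -0.55 and -0.57, and no *Nxt1* array reached a control array.

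The deepest fall in *aly* testes was that of *CG15530*, the only 1 of the 95 below -7. Its signals were 72.6, 35.7 and 35.8 in *aly*, 4899, 4509 and 4773 in *Nxt1* and 7429, 7306 and 6763 in control testes, which gives -7.31 for *aly* minus control and -0.60 for *Nxt1* minus control. Its probe set is of the kind that may also bind transcripts of other genes. *CG1137* had signals of 95.5, 55.5 and 46.8 in *aly*, 5161, 4476 and 4157 in *Nxt1* and 7831, 7635 and 7922 in control testes. The corresponding log2 differences were -6.95 and -0.77, so a gene that lost nearly all signal in *aly* testes kept over 50% of it in *Nxt1* testes.

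*CG13700* had 52.1, 40.8 and 44.7 in *aly*, 2959, 2615 and 2556 in *Nxt1* and 5805, 5161 and 5048 in control testes. It lay close to the limit in *Nxt1* testes at -0.98, and at -6.87 in *aly* testes. *CG13855* had 40.4, 49.4 and 39.6 in *aly*, 2530.0, 2435 and 2184 in *Nxt1* and 4681, 4386 and 4512 in control testes. *CG30270* had 88.8, 91.8 and 92.5 in *aly*, 6849, 6594 and 6794 in *Nxt1* and 9504, 9654 and 8954 in control testes. *CG17564* had 99.9, 90.3 and 66.8 in *aly*, 4921, 4439 and 4231 in *Nxt1* and 7751, 8047 and 8057 in control testes. No *aly* array reached a signal of 100 in any of these 3 genes. Their *aly* minus control was -6.72, -6.69 and -6.56, and *Nxt1* minus control was -0.93, -0.47 and -0.81. *CG30270* was thus nearest to its control level among the 6 genes with the deepest falls.

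At the other end, 7 genes had a mean more than 0.5 higher on the log2 scale in *Nxt1* than in control testes while they were faint in *aly* testes. *CG14456* had signals of 94.7, 90.3 and 84.9 in *aly*, 6712, 6651 and 6486 in *Nxt1* and 1876, 1924 and 2055 in control testes. Every *Nxt1* array was at least 3 fold above every control array, and the log2 differences were 1.76 for *Nxt1* minus control and -4.44 for *aly* minus control. *CG31406* had 69.8, 65.9 and 45.5 in *aly*, 6741, 5057 and 5383 in *Nxt1* and 2134, 2066 and 2027 in control testes. Its *Nxt1* arrays differed more among themselves, with replicate 1 highest, and its differences were 1.45 in *Nxt1* and -5.13 in *aly* testes.

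*CG34029* had 66.3, 138 and 50.6 in *aly*, 4523, 4840.2 and 4857 in *Nxt1* and 1916, 1704 and 2109 in control testes. In *aly* testes replicate 2 was over 2 fold above the other arrays, and the differences were 1.32 in *Nxt1* and -4.62 in *aly* testes. *CG18545* had 69.5, 153 and 104 in *aly*, 3979, 3980.3 and 3793 in *Nxt1* and 2025, 1774 and 2173 in control testes. *CG8927* had 52.7, 104 and 64.6 in *aly*, 2566, 2717 and 2769.6 in *Nxt1* and 1408, 1294 and 1449.6 in control testes. *CG6083* had 111, 143 and 167 in *aly*, 5603, 5509 and 5386 in *Nxt1* and 3180.2, 3061 and 3044 in control testes. These 3 were 0.98, 0.96 and 0.83 above control in *Nxt1* testes on the log2 scale, with no overlap of arrays.

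*CG30268*, the last of the 7, had 35.3, 27.6 and 27.3 in *aly*, 2634, 2609.8 and 2403 in *Nxt1* and 1479, 1344 and 1598 in control testes, with log2 differences of 0.79 in *Nxt1* and -5.62 in *aly* testes. Control signals of these 7 genes were moderate, from 1384 to 3095 with a median of 1952. The 31 genes between -1 and -0.75 had control signals of 925 to 25775 with a median of 6108. Control arrays enter both the level and the difference here, so the 2 values are not independent.

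Between 0 and 0.5 lay 8 genes. In *CG7707*, *CG10750*, *CG6614* and *CG10764* every *Nxt1* array exceeded every control array. *CG10764* had 43.9, 33.8 and 48.7 in *aly*, 1217, 959 and 1004 in *Nxt1* and 880.2, 854 and 749 in control testes, at log2 differences of 0.35 in *Nxt1* and -4.31 in *aly* testes. *CG6614* had 19.7, 16.8 and 26.5 in *aly*, 1749.8, 1710.3 and 1707 in *Nxt1* and 1427, 1208 and 1438 in control testes, and its *aly* signals were the lowest of the 95. *CG10750* had 126, 118 and 75.8 in *aly*, 8484, 8268 and 7992 in *Nxt1* and 6348, 6503 and 6869 in control testes. *CG7707*, listed in the reference also as FBXO8, had 145, 207 and 185 in *aly*, 6668, 6522 and 6325 in *Nxt1* and 5691, 5579 and 5998 in control testes. Log2 differences of these 3 in *Nxt1* testes were 0.35, 0.33 and 0.18, against -6.04, -5.98 and -5.02 in *aly* testes.

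The groups of *Nxt1* and control arrays overlapped in 7 genes, so that the arrays do not separate the genotypes there. These were *CG4213*, *CG31465*, *CG17687*, *CG32628*, *CG42535*, *CG17258* and *CG13426*, with *Nxt1* minus control from -0.13 in *CG4213* to 0.13 in *CG13426*. *CG17687* was the closest to 0, at -0.02, with signals of 71.0, 69.3 and 45.2 in *aly*, 1288, 1361 and 1447 in *Nxt1* and 1479.5, 1258 and 1426 in control testes. *CG42535* had the deepest fall in *aly* testes among them, at -5.33, with 75.2, 111 and 62.5 in *aly*, 3897, 3284 and 3340.3 in *Nxt1* and 3239.9, 3031 and 3428 in control testes.

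**Figure D2:**
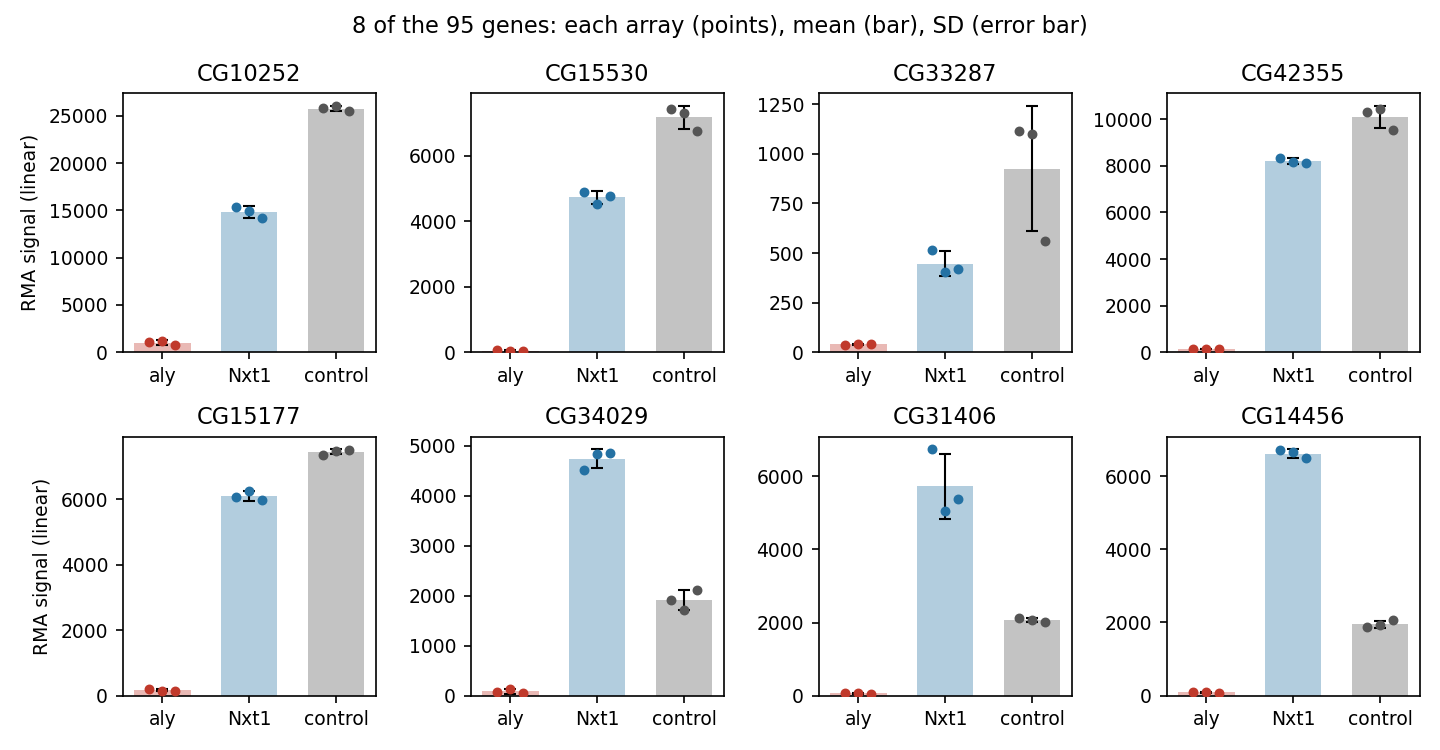
RMA signal on a linear scale (vertical axis, from 0) of 8 of the 95 genes in *aly*, *Nxt1* and control testes, with 1 point per array, the mean as a bar and the SD as an error bar (n = 3 arrays). *CG10252* is the brightest, *CG33287* has 1 control array at 559.9 beside 1114 and 1103, and *CG34029*, *CG31406* and *CG14456* stand higher in *Nxt1* than in control testes.

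The study examined a pair of these genes by RNA in situ hybridisation, *CG42355* and *CG15177*, and detected both in *Nxt1* but not in *aly* testes. It also measured *CG42355* by q-RT-PCR in purified spermatocytes relative to a control gene. There it gives the native gene as 5 fold reduced in *Nxt1* mutant cells, a larger fall than on the arrays. That measure differs from the arrays in cells, *Nxt1* genotype and scaling. In a further q-RT-PCR, the study describes a mild fall of *CG42355* after *Nxt1* RNAi. It gives a similar effect for the *Nxt1* genotype used on the arrays. *CG42355* had signals of 143, 136 and 129 in *aly*, 8355, 8177 and 8110.0 in *Nxt1* and 10309.6, 10431 and 9539 in control testes. *CG15177* had 206, 157 and 144 in *aly*, 6066, 6249 and 5959.5 in *Nxt1* and 7354, 7451 and 7508 in control testes. Both fell by over 5 on the log2 scale in *aly* testes, at -6.21 and -5.48. In *Nxt1* testes they were -0.30 and -0.29 from control, and no *Nxt1* array reached a control array. With arrays centred on *CG3927*, a gene described with the scaling below, the *Nxt1* differences were -1.07 for *CG42355* and -1.06 for *CG15177*, and with ribosomal protein genes -1.42 for both, so neither gene met the rule under either centring. Among the study's other in situ test genes, *djl*, *CG11249* and *Ran-like* also had *aly* minus control at or below -4. In *aly* and *Nxt1* testes *djl* was at -6.88 and -2.47, *CG11249* at -6.10 and -6.61, and *Ran-like* at -6.81 and -7.75.

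Some genes lay very near to the limits. Just inside the limit of -1 in *Nxt1* testes were *CG33287* at -0.99, *CG31139* at -0.99 and *CG14974* at -0.99, and just outside were *CG17717* at -1.01, *CG12617* at -1.02 and *CG5280* at -1.04. *CG33287* had 36.8, 42.7 and 39.8 in *aly*, 517, 403 and 418 in *Nxt1* and 1114, 1103 and 559.9 in control testes. Here control replicate 3 was close to the highest *Nxt1* array and about 50% below the other control arrays. *CG31139* had 108, 97.8 and 76.9 in *aly*, 2484, 2711 and 2614 in *Nxt1* and 5274, 5480.1 and 4804 in control testes. *CG14974* had 110.2, 150.3 and 112 in *aly*, 3940.0, 3965 and 3905 in *Nxt1* and 7501, 8274 and 7693 in control testes, and neither of these 2 had a control array near its *Nxt1* arrays.

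*CG33308*, at -0.98, had 269, 263 and 248 in *aly*, 3757, 3074 and 3743 in *Nxt1* and 7153, 7368 and 6322 in control testes. *CG4270*, at -0.95, had 149, 204 and 148 in *aly*, 5180.1, 3891 and 4451 in *Nxt1* and 8788, 8453 and 8764 in control testes. In *CG4270* the *Nxt1* arrays ran over a wider range than the control arrays. Outside the limit *CG17717* had 222, 278 and 235 in *aly*, 3386, 3523 and 3403 in *Nxt1* and 7041, 6884 and 6798 in control testes, values that differ little in pattern from those of *CG14974*. *CG12617* had 97.1, 126 and 68.9 in *aly*, 4641, 4117 and 4008 in *Nxt1* and 8495, 8235 and 9134 in control testes. *CG5280* had 304, 192 and 269 in *aly*, 3470.5, 3061 and 3014 in *Nxt1* and 6417, 6389 and 6785 in control testes, so no gap separates the genes on the 2 sides of -1.

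Near the limit of -4 in *aly* testes, *CG18649* (-4.04), *CG17118* (-4.09) and *CG33225* (-4.19) were inside, and *CG1638* (-3.98), *CG34188* (-3.95) and *CG31068* (-3.93) outside. *CG18649* had 54.2, 62.6 and 63.7 in *aly*, 813, 793 and 521 in *Nxt1* and 969.8, 976 and 1018 in control testes. Its *Nxt1* replicate 3 lay well below the other *Nxt1* arrays. *CG17118* had 482, 463 and 447 in *aly*, 5600.4, 5430.4 and 5072 in *Nxt1* and 7694, 7759 and 8275 in control testes. *CG33225*, whose other name SPH236 follows the numbering of serine protease homologues, had 121, 98.5 and 147 in *aly*, 1430.3, 1386 and 1373 in *Nxt1* and 2212, 2354 and 2033 in control testes. In *CG33225* the highest *aly* array was about 1.5 fold above the lowest.

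*CG1638* had 237, 217 and 196 in *aly*, 1829, 1970.0 and 1812 in *Nxt1* and 3555, 3598 and 3077 in control testes. *CG34188* had 313, 296 and 261 in *aly*, 5027, 4848 and 4644 in *Nxt1* and 4454, 4314 and 4646 in control testes. *CG31068* had 133, 96.4 and 74.8 in *aly*, 1158, 1315 and 1173 in *Nxt1* and 1503, 1314 and 1711 in control testes. Each of these 3 had an *aly* signal under 10% of control, as the genes just inside the limit did, and *Nxt1* minus control of -0.86, 0.11 and -0.31.

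**Figure D3:**
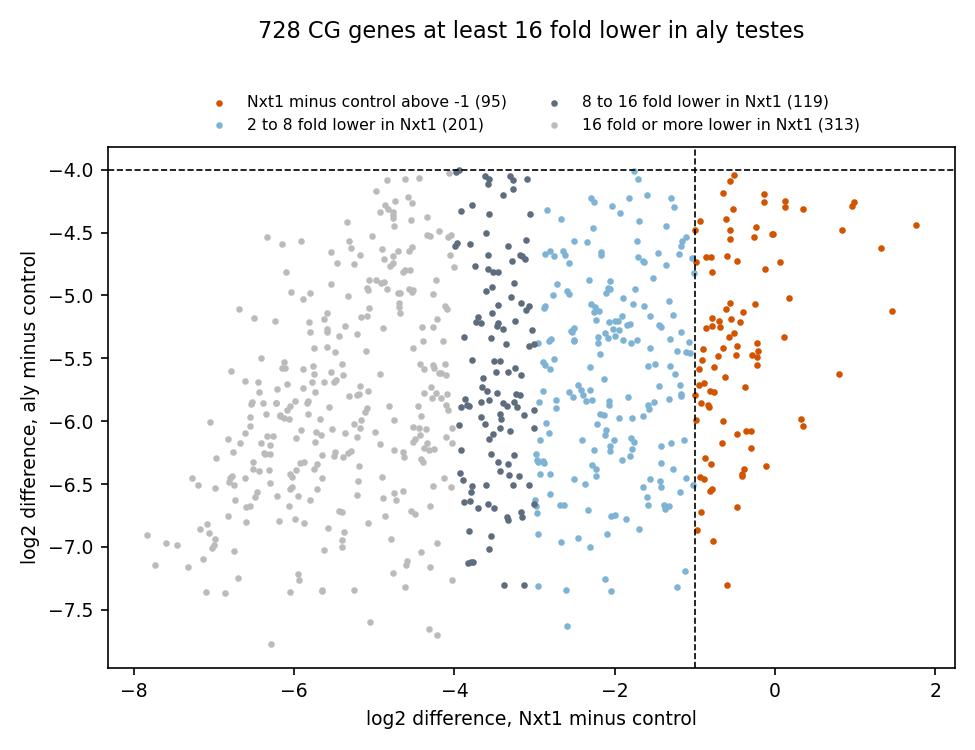
Log2 difference of *Nxt1* minus control (horizontal axis) against that of *aly* minus control (vertical axis) for the 728 CG genes at least 16 fold lower in *aly* testes, 1 point per gene, with dashed lines at the limits of -1 and -4. The 95 genes lie to the right of the line at -1, and 313 genes lie at -4 or below in *Nxt1* testes. Both axes share the control arrays.

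The other genes of the 95 followed the same pattern at signals between those given above. From -1 to -0.75 in *Nxt1* testes were also *CG31482*, *CG14739*, *CG11656*, *CG10064*, *CG33490*, *CG3062*, *CG7309*, *CG9014*, *CG13326*, *CG7251*, *CG3788*, *CG13442*, *CG13544*, *CG13449*, *CG18063*, *CG17005*, *CG32459*, *CG15498* and *CG15125*. The 31 genes of this range, those named above included, had *aly* minus control from -6.95 to -4.41.

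From -0.75 to -0.5 were also *CG4995*, *CG12914*, *CG3687*, *CG14540*, *CG13202*, *CG16894*, *CG10510*, *CG12693*, *CG13989*, *CG15128*, *CG33061* and *CG9030*. Here *aly* minus control ran from -7.31 to -4.04 over 21 genes, and control signals ran from 988 to 16495. From -0.5 to -0.25 were also *CG1801*, *CG31093*, *CG5348*, *CG14589*, *CG8851*, *CG14644*, *CG31231*, *CG5050*, *CG32588*, *CG7196*, *CG13168*, *CG9875* and *CG15824*. *CG15873*, also numbered among the serine protease homologues as SPH184, had signals of 32.8, 52.1 and 35.1 in *aly*, 2157, 1893 and 1805 in *Nxt1* and 2570.0, 2852 and 2669.8 in control testes, with *aly* minus control at -6.11. Over the 17 genes of this range *aly* minus control was -6.69 to -4.53 and control signals were 1177 to 11704.

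From -0.25 to 0 were also *CG15418*, *CG10919*, *CG32718*, *CG11322*, *CG14054* and *CG10307*. *CG14362*, also listed as CBP10, had 91.6, 87.8 and 44.6 in *aly*, 1723, 1810.3 and 1865 in *Nxt1* and 2009, 1930.5 and 1969.8 in control testes, and *aly* replicate 3 was about 50% of the other *aly* arrays. This range of 11 genes had a median control signal of 2047, and *aly* minus control of -6.36 to -4.19. Of the 95, 93 were found in the reference gene table, where none had a current name other than its CG number, and *CG7196* and *CG32628* were not matched.

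Second probe sets were present for 6 of the 95 genes. *CG31406* had the same pattern on both. Its other probe set gave 30.5, 37.5 and 41.4 in *aly*, 3896, 2590.4 and 2909 in *Nxt1* and 1139, 1069.6 and 1238 in control testes, with log2 differences of 1.43 in *Nxt1* and -4.99 in *aly* testes. *CG8851* met the rule on both as well, at -0.87 in *Nxt1* and -4.64 in *aly* testes on the second. For *CG4270* the second gave -1.01 in *Nxt1* testes, just past the limit, and -7.06 in *aly* testes, with 48.1, 61.0 and 45.7 in *aly*, 3677, 3189 and 3303 in *Nxt1* and 6919, 7137 and 6423 in control testes.

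The remaining 3 genes had a probe set that showed less difference. *CG14691* had 87.5, 65.9 and 64.5 in *aly*, 2836, 2524 and 2348 in *Nxt1* and 2916, 2958 and 3119.7 in control testes on the probe set used. For this gene, 1 of 2 further probe sets met the rule at -0.59 in *Nxt1* and -5.15 in *aly* testes, and the other gave -0.64 and -1.44 at signals of 51.5 to 154. *CG15145* had 94.8, 52.5 and 65.4 in *aly*, 1272, 1144 and 1092 in *Nxt1* and 1759, 1589 and 1980.1 in control testes on the probe set used. It gave -0.31 in *Nxt1* and -1.13 in *aly* testes at signals of 138 to 343 on its second. The second probe set of *CG42355* had signals of 20.5 to 30.1 on all 9 arrays and differences of -0.07 in *Nxt1* and 0.09 in *aly* testes, so it did not follow the first. With every probe set of a gene required to meet the rule, 91 genes were left.

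The 728 CG genes at least 16 fold lower in *aly* testes were spread over the whole range in *Nxt1* testes. Beside the 95, 201 (27.6%) were 2 to 8 fold lower in *Nxt1* testes, 119 (16.3%) were 8 to 16 fold lower and 313 (43.0%) were 16 fold lower or more. The median control signal was 4826 for the 95 genes, 5187 for those 2 to 8 fold lower, 4948 for those 8 to 16 fold lower and 4313 for those 16 fold lower or more. In *aly* testes the median signals were 103, 95.1, 88.1 and 67.7 in the same order. The median of *aly* minus control was -5.38 for the 95, then -5.56, -5.73 and -5.94. These sets were cut from the same arrays that give the values, so the differences between them were not tested.

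Position in the genome did not enter the choice. A neighbour is taken here as the next protein-coding gene on the same chromosome in the order of the reference (Release 6), with a probe set of 1 symbol. Of the 91 genes with a measured neighbour, 31 (34.1%) had at least 1 that was also 16 fold or more lower in *aly* testes. That share was 29.9% of genes 2 to 8 fold lower in *Nxt1* testes, 29.6% of those 8 to 16 fold lower and 35.8% of those 16 fold lower or more, beside 13.3% of all 11577 measured genes with a neighbour. The share for the 95 lay between the lowest and highest share of these sets, and no test was made between sets.

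Counting all different neighbours that were 16 fold or more lower in *aly* testes, 8 of 38 (21.1%) lay above -1 in *Nxt1* testes, beside 127 of 969 (13.1%) of all such genes in the reference order, and no test was made. Of the 8, 6 were themselves among the 95. Among the 32 neighbours outside the 95 that were 16 fold or more lower in *aly* testes, 9 were at -4 or below in *Nxt1* testes too, 21 lay between -4 and -1, and 2 lay above -1. A CG gene above -1 is by the rule among the 95, so only genes with another name could do so. Pairs with unlike *Nxt1* levels are given next, chosen for that difference. *CG1137*, at -0.77 in *Nxt1* testes, stood between *Pif2* at -6.19 and *CG2336* at -4.53. *CG7707* at 0.18 was beside *CG6497* at -6.55, and *CG6614* at 0.35 was beside *CG12307* at -6.51. *CG32459* at -0.78 was beside *CG32462* at -6.52. Each of these neighbours was 16 fold or more lower in *aly* testes, at -6.81 for *Pif2*, -6.72 for *CG2336*, -5.96 for *CG6497*, -6.33 for *CG12307* and -5.84 for *CG32462*.

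*CG15177* lay between *sowi* and *sunz*, genes of the comet and cup group, which is transcribed in spermatids. These were at -0.99 and -3.71 in *Nxt1* and at -5.76 and -5.89 in *aly* testes. *CG31482* at -0.93 was beside *glob2*, a globin gene, at 0.10 in *Nxt1* and -5.34 in *aly* testes. Both *sowi* and *glob2* met the same limits but have a name of their own.

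Adjacent genes that were both among the 95 formed 3 pairs. *CG18545* and *CG31406* were both higher in *Nxt1* than in control testes, at 0.98 and 1.45. *CG30275* was at -0.94 and *CG30268* beside it at 0.79, and both carry *CG13520* among their older names. *CG30275* had signals of 197, 144 and 172 in *aly*, 1917, 1824 and 1909 in *Nxt1* and 3554, 3343 and 3955 in control testes. *CG17564* was at -0.81 and *CG10750* at 0.33. In the last 2 pairs, genes side by side thus lay on different sides of the control level, although all 6 were at -4.26 or less in *aly* testes. Of the genes with a measured neighbour, 6.59% of the 95 lay next to another of the 95. The share next to 1 of the 95 was 6.60% of the genes 2 to 8 fold lower in *Nxt1* testes, 3.48% of those 8 to 16 fold lower, 2.61% of those 16 fold lower or more, 1.36% of all measured genes and 1.57% of all CG genes.

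**Figure D4:**
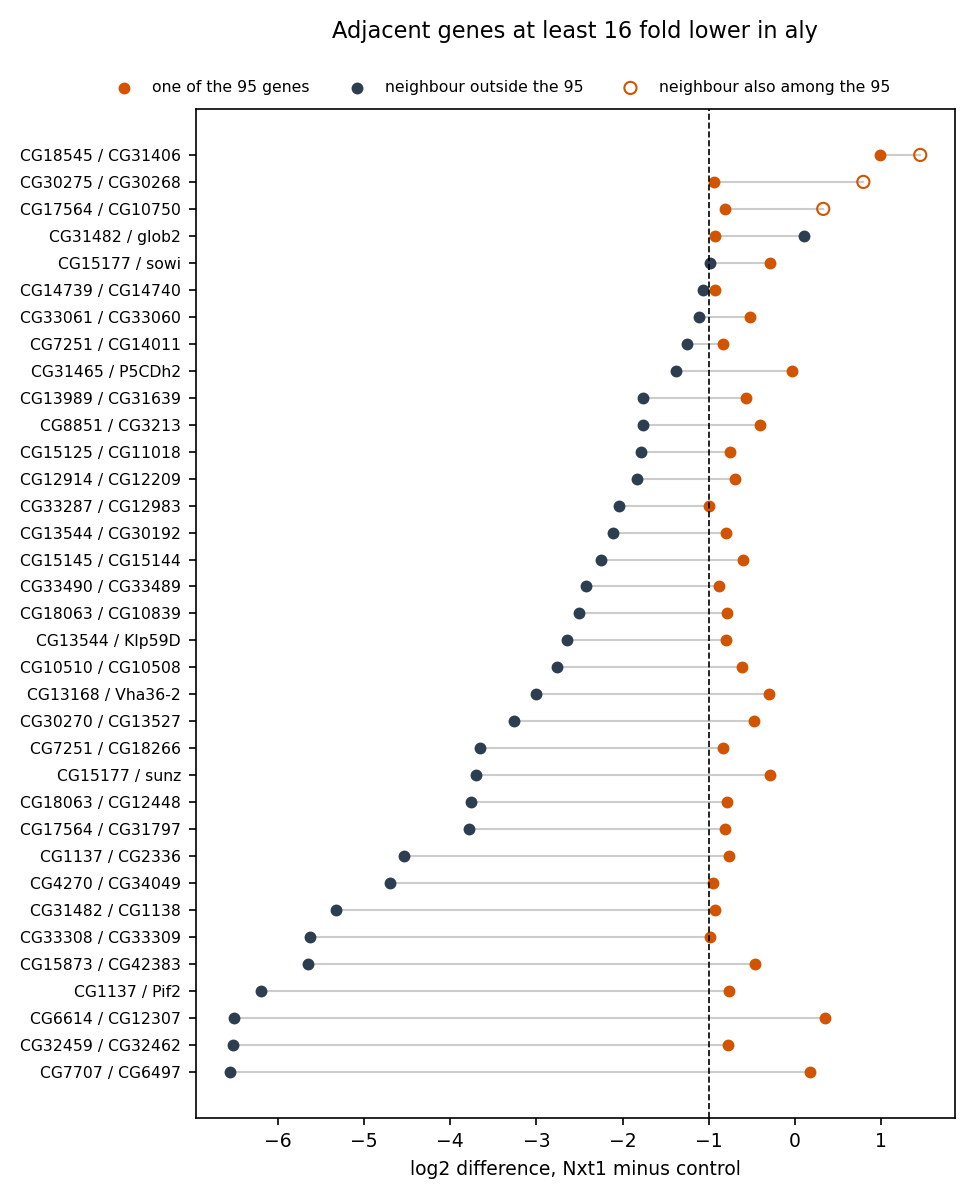
Log2 difference of *Nxt1* minus control (horizontal axis) for 35 pairs of adjacent genes (rows) that were both 16 fold or more lower in *aly* testes, of which at least 1 is among the 95, with the limit of -1 as a dashed line. Neighbours outside the 95 lie left of the line except *sowi* and *glob2*, down to -6.55 for *CG6497* beside *CG7707*, and in 3 pairs both genes are among the 95.

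The genes for tMAC itself were measured in the same arrays. They were tested with limma over all 9 arrays, with p-values adjusted over all 18769 probe sets and a threshold of 0.05. In *aly* testes 20.0% of all probe sets passed as lower and 44.0% as higher, and in *Nxt1* testes 24.2% and 34.1%. Of 9 tMAC genes measured, 8 rose and only *aly* fell in *aly* testes, with a median log2 difference of 2.05 beside 0.21 over all probe sets. In *Nxt1* testes 7 rose and *mip40* fell (median 1.37 beside -0.01 over all), and *topi*, whose product binds DNA in the complex, did not pass at -0.04 (limma adjusted p = 0.677).

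The *aly* signal was 52.8, 50.8 and 57.5 in *aly*, 365, 385 and 354 in *Nxt1* and 106, 93.4 and 98.0 in control testes. Its log2 difference was -0.89 (standard error 0.08, limma adjusted p = 5.10e-06) in *aly* testes and 1.89 (standard error 0.08, limma adjusted p = 2.00e-08) in *Nxt1* testes, with no overlap of arrays. The signal of *aly* was thus highest in *Nxt1* testes. On every *aly* and control array it lay below the array median, so its fall in *aly* testes was between dim signals. Another subunit, *comr*, rose by 2.51 in *aly* (limma adjusted p = 7.75e-09) and by 0.99 in *Nxt1* testes (limma adjusted p = 1.35e-05). For *tomb* the rises were 2.62 (limma adjusted p = 4.26e-09) and 2.01 (limma adjusted p = 4.64e-08). The fall of *mip40* in *Nxt1* testes was small, at -0.27 (limma adjusted p = 0.00467). The study reports no reduced transcript of a known tMAC subunit in *Nxt1* testes, and its text gives no threshold for this.

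Of the testis TAFs, *can*, *mia*, *nht* and *sa* were measured and *rye* was not. All 4 rose in *aly* testes, with a median of 2.42, and *can*, *nht* and *sa* rose in *Nxt1* testes, where the median was 0.66. The signal of *mia* averaged 1925 ± 113 in *Nxt1* and 1948 ± 65.3 in control testes (SD, n = 3 each), a difference of -0.02 that did not pass (limma adjusted p = 0.857). Under another scaling these directions change in part. With arrays centred on ribosomal protein genes, 2 tMAC genes passed as lower and 6 as higher in *aly* testes and 2 and 4 in *Nxt1* testes. Of the testis TAFs, 1 and 3 did so in *aly* testes and 3 and 1 in *Nxt1* testes. Centring on *CG3927* gave 2 lower and 6 higher tMAC genes in either mutant, and for the testis TAFs 1 and 3 in *aly* and 2 and 1 in *Nxt1* testes.

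The genes counted as less than 2 fold below control in *Nxt1* testes also depended on the scaling. The study used *CG3927*, which it describes as restricted to primary spermatocytes, as a control gene in q-RT-PCR. From in situ hybridisation and microarrays it gives this gene as similar to wild type in *Nxt1* mutant testes. Here *CG3927* had signals of 10575, 11687 and 10738 in *aly*, 8378, 8497 and 8789.5 in *Nxt1* and 5110.0, 4965 and 4922 in control testes. Its log2 differences were 1.14 in *aly* and 0.78 in *Nxt1* testes on the deposited scale. For its nascent RNA work the study used other control genes, *CG12699* and *ocn*, picked for no defect on the *Nxt1* arrays. As deposited these were at 0.02 and -0.23 in *Nxt1* and at -0.52 and -0.63 in *aly* testes. Centring on them was not tested. With each array centred on *CG3927*, 37 CG genes met the rule, of which 24 were among the 95. Centring on 47 ribosomal protein probe sets takes off 1.22 in *aly* and 1.13 in *Nxt1* testes, and left 18 genes, 12 of them among the 95.

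All 12 were at 0.13 or above in *Nxt1* testes as deposited. They were *CG14456*, *CG31406*, *CG34029*, *CG18545*, *CG8927*, *CG6083*, *CG30268*, *CG10764*, *CG6614*, *CG10750*, *CG7707* and *CG13426*. After that centring only *CG34029*, *CG31406* and *CG14456* of the 95 were above control in *Nxt1* testes, at 0.19, 0.32 and 0.63. The fall in *aly* testes stayed at -4 or less for all 95 genes under both centrings, at most -5.26 with ribosomal protein genes and -5.18 with *CG3927*.

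**Figure D5:**
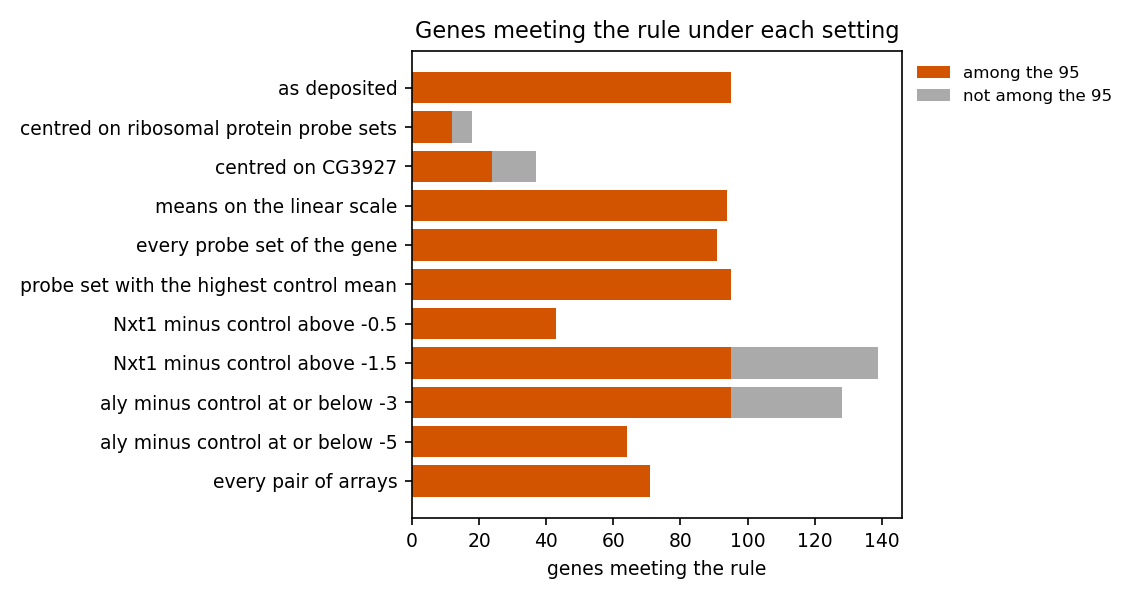
Number of CG genes that met the rule (horizontal axis) as deposited and under 10 other settings (rows), split into those among the 95 and others. Centring on ribosomal protein genes left 18 and on *CG3927* 37, and limits of -0.5 and -1.5 in *Nxt1* testes gave 43 and 139.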

How the data were processed

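The authors processed the arrays with GCOS and RMA (no versions given) and deposited signal intensities on a linear scale. The log2 of these intensities was taken with nothing added. Of 18952 probe sets, 183 control probe sets were left out, and 13646 of the remaining 18769 carried 1 gene symbol and 402 several, in a platform annotation that may be out of date. Linear models (limma 3.58.1, R 4.3.3, lmFit and eBayes, Benjamini-Hochberg over all probe sets, adjusted p under 0.05) were fitted to all 9 arrays with 1 mean per genotype. The fit was tested on simulated data for *Nxt1* minus control. There log2 changes of -5 and -2 were recovered for 100%, -1 for 88% and 1 for 94% of the changed probe sets. The simulation used independent normal noise and changed 50 probe sets per size, far fewer than passed in the real arrays. Recovery on the real arrays may therefore differ. Figures were drawn with Python 3.11.15 and matplotlib 3.10.9.

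The 95 genes and all gene lists were chosen with earlier results of these data known. Genes named in full were those the paper names, the 6 with the highest control signal, the 6 lowest in *aly*, the 6 highest and 6 lowest in *Nxt1*, those nearest each limit, those with conflicting probe sets and those adjacent to another of the 95. Genes named for their neighbours or for being closest to a value were chosen after their values were seen. The marker lists were male germline, spermatid-transcribed, accessory gland, testis sheath muscle, fat body, and cyst and hub genes. Alternatives were centring on ribosomal protein genes or *CG3927*, linear means, other probe set rules and limits, every pair of arrays, leaving out each array, and the replicate number as a block. Sequence features were not analysed here.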

Additional observations from a re-analysis of the deposited data

How the results depend on the processing

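The number of genes that met the rule was 95 as deposited, 18 with arrays centred on ribosomal protein genes, 37 with centring on *CG3927* and 43 with a limit of -0.5 in *Nxt1* testes. Over the fixed 95, the median of *aly* minus control was -5.38 as deposited, -6.60 with ribosomal centring and -6.52 with *CG3927* centring, and the median of *Nxt1* minus control was -0.56, -1.69 and -1.33. Of the 95, 15 were above control in *Nxt1* testes as deposited, 3 with ribosomal and 7 with *CG3927* centring. Leaving out 1 array at a time gave 92 to 98 genes, a median *Nxt1* difference of -0.58 to -0.51 and 15 to 16 genes above control. Without control replicate 3 it gave 93 genes, 90 of them shared, and *CG33287* was the lowest of the 95 in *Nxt1* testes at -1.32. Both limits applied to every pair of arrays gave 71 genes, a limit of -1.5 in *Nxt1* testes 139, and limits of -3 and -5 in *aly* testes 128 and 64.

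Probe sets that passed in *Nxt1* testes numbered 10928 as deposited, 4533 lower and 6395 higher, and 16683 with ribosomal centring, 14579 lower and 2104 higher. With *CG3927* centring 12971 passed as lower and 3158 as higher. In *aly* testes the split was 3756 lower and 8260 higher as deposited, 14266 and 2442 with ribosomal centring and 13905 and 2681 with *CG3927* centring. The median over all probe sets was 0.21 in *aly* and -0.01 in *Nxt1* testes as deposited, -1.01 and -1.14 with ribosomal centring, and -0.93 and -0.79 with *CG3927* centring. Deviations of same-numbered arrays from their group means correlated at -0.23 to 0.35, and not every array correlated best with its own number. Deviations among 3 arrays per genotype depend on each other, so these values cannot decide whether the numbers pair the samples. With the replicate number as a block, 11858 probe sets passed in *aly* (12016 without) and 10771 in *Nxt1* testes, and 9 and 8 tMAC and 4 and 3 testis TAF genes, so no count of these lists changed. No value here gives the RNA content per cell, so which scaling is nearest to it was not tested.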

Other observations

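Genes with a name of their own met the same limits too. Of 253 such genes at least 16 fold lower in *aly* testes, 35 (13.8%) were above -1 in *Nxt1* testes, beside 95 of 728 CG genes (13.0%), and 9 of 56 probe sets with several or no symbols (16.1%). They were looked at after the 95, and the values are a description. The genes named below are examples, and whether any class of gene is common among the 35 was not tested. Among the 35 was *Tektin-C*, of a family of proteins in the wall of axonemal microtubules, at 0.01 in *Nxt1* and -5.14 in *aly* testes. *Rsph1* and *Rsph3*, named for radial spoke head proteins, were at -0.65 and 0.08 in *Nxt1* and at -4.54 and -5.32 in *aly* testes. *Dnaaf4* and *Dnaaf6*, named for assembly factors of axonemal dynein, were at 0.31 and -0.68 in *Nxt1* and at -5.40 and -4.17 in *aly* testes.

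Also among the 35 were *Fum2* and *Fum3*, fumarase genes, at -0.32 and -0.77 in *Nxt1* and -4.85 and -5.76 in *aly* testes. *Porin2*, a mitochondrial porin gene, was at -0.37 in *Nxt1* and -5.79 in *aly* testes, and *Prosalpha6T*, for a testis proteasome subunit, at -0.76 and -6.11. *Tsp33B*, for a tetraspanin, was the highest of the 35 in *Nxt1* testes. Its signal averaged 148 ± 17.4 in *aly*, 7979 ± 88.2 in *Nxt1* and 3696 ± 275 in control testes (SD, n = 3 each), with log2 differences of -4.64 in *aly* and 1.11 in *Nxt1* testes.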
